A study of Homo sapiens with 4 samples.

Results

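Genes of iron handling were followed in cells labelled Huh7 and HepG2, the names of human liver cancer lines, after 24 h of RSL3@O2-ICG NBS given together with ultrasound of low frequency, and in untreated cultures. The set holds 10 genes of iron storage, release, uptake, export and sensing, taken by symbol from a coding table of 19739 genes, and all 10 were found there. The groups were treated HepG2, untreated HepG2, treated Huh7 and untreated Huh7, with 1 RNA sequencing library each, and without replicates neither an SD nor a test exists within a line. No library analysed here received RSL3, the carrier or ultrasound alone, and the labels leave NBS unexplained. RSL3 inhibits GPX4, the enzyme that reduces lipid hydroperoxides in membranes, and so sets off ferroptosis, a cell death that needs iron.

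The iron that a cell does not use at once is held in ferritin, a hollow shell built of heavy (FTH1) and light (FTL) chains. The heavy chain oxidises ferrous iron and the light chain helps to form the mineral core. Iron enters with transferrin through the receptor TFRC, leaves through ferroportin (SLC40A1), and is freed inside the cell by the breakdown of ferritin or haem. Free ferrous iron drives lipid peroxidation, and liver cells store much of the body's iron. The iron regulatory proteins, encoded by ACO1 and IREB2, bind hairpins in messengers when iron is scarce. At the 5′ end of a messenger such a hairpin blocks translation, and at the 3′ end it protects the messenger from decay.

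The hairpins of the set are shown because the 4 members in which the search found them differ in the end of the messenger that holds them. The search asked for a bulged C, 5 bases, the loop CAGTGN and 5 bases that pair with the first 5 (G with T allowed), on the strand of the messenger. In the GENCODE 29 transcripts (GRCh38) it was found in 4 of the 10 genes, against 291 of all 19684 coding genes (1.48%), anywhere in the transcript. By this search FTH1, FTL and SLC40A1 held 1 hairpin each in the 5′ UTR, and TFRC held 4 in the 3′ UTR. Hairpins with other letters or pairs were not counted, in these or the other members. The capitals mark the loop, and each sequence is 29 bases long.
FTH1: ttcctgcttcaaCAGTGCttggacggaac
FTL: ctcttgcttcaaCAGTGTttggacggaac
SLC40A1: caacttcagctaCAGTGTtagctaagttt
TFRC element 1: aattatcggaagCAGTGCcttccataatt
TFRC element 2: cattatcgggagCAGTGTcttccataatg
TFRC element 3: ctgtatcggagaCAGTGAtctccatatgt
TFRC element 4: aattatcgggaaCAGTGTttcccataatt

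The ferritin hairpins were alike in 26 of 29 bases. Counted from 1 at the 5′ end of the printed sequences, with FTH1 first, they differed by T1C, C4T and C18T, and the last of these is the final base of the loop. The FTH1 hairpin lies at chr11:61967574-61967602 on the minus strand and that of FTL at chr19:48965335-48965363 on the plus strand. The SLC40A1 hairpin lies at chr2:189580661-189580689 and the TFRC hairpins between chr3:196050463-196050491 and chr3:196050979-196051007, all on the minus strand. Where the search found nothing, only these letters and pairs are lacking in these transcripts.

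The values are FPKM, which the authors scaled to transcript length and library size before they deposited them, so that levels of different genes can be set side by side. Depth was inferred at 22900000 to 26400000 fragments per library, from the most frequent low value of FPKM times transcript length. The lowest level of a member that was not at 0, that of ACO1 in treated Huh7, rests on at least 410 fragments. The labels were checked against markers of the hepatocyte. All 11 of them, among them albumin, transferrin and HNF4A, were below 1 FPKM in both libraries labelled HepG2, with summed levels of 0.435 FPKM treated and 0.528 FPKM untreated. Of them 6 were at 0 treated and 8 untreated, albumin in both. None of the 11 was below 1 FPKM in Huh7, where they summed to 1431 FPKM treated and 1857 FPKM untreated. HepG2 is known for making albumin and transferrin, so these libraries are called cells labelled HepG2, and each direction in them holds for cells so labelled. Of 7 markers of blood cells, 5 were below 1 FPKM in treated and 5 in untreated cells labelled HepG2 (summed 24.3 and 3.12 FPKM), as were 5 in treated and 6 in untreated Huh7 (5.44 and 15.8 FPKM). PTPRC, found on most white blood cells, was at 0 in all 4 libraries. CD68, a protein of macrophage lysosomes, stood at 20.7 FPKM in treated and 1.38 FPKM in untreated cells labelled HepG2, and at 2.83 FPKM in treated and 0.521 FPKM in untreated Huh7. CD14, of the same list, went the other way in Huh7, at 2.21 FPKM treated and 15.1 FPKM untreated. It was below 1 FPKM under the HepG2 label. HBA1 stood at 3.36 FPKM in treated and 1.69 FPKM in untreated cells labelled HepG2, and below 1 FPKM in Huh7. The 7 fibroblast and stellate cell markers summed to 9.50 FPKM in treated and 8.87 FPKM in untreated cells labelled HepG2, and to 10.3 FPKM in treated and 38.0 FPKM in untreated Huh7. Under the HepG2 label single markers went opposite ways. PDGFRB (1.67 FPKM treated, 5.67 FPKM untreated) and DCN (0.269 and 1.48) were lower, and ACTA2 (5.23 and 1.22) and COL1A1 (2.32 and 0.423) were higher. Most of the sum in Huh7 was LUM, at 8.05 FPKM treated and 31.7 FPKM untreated. The 5 endothelial markers summed to at most 1.15 FPKM in any library. The part of these markers in the results was not tested. In bulk RNA, fewer cells with a transcript and less of it per cell cannot be told apart.

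**Figure D1:**
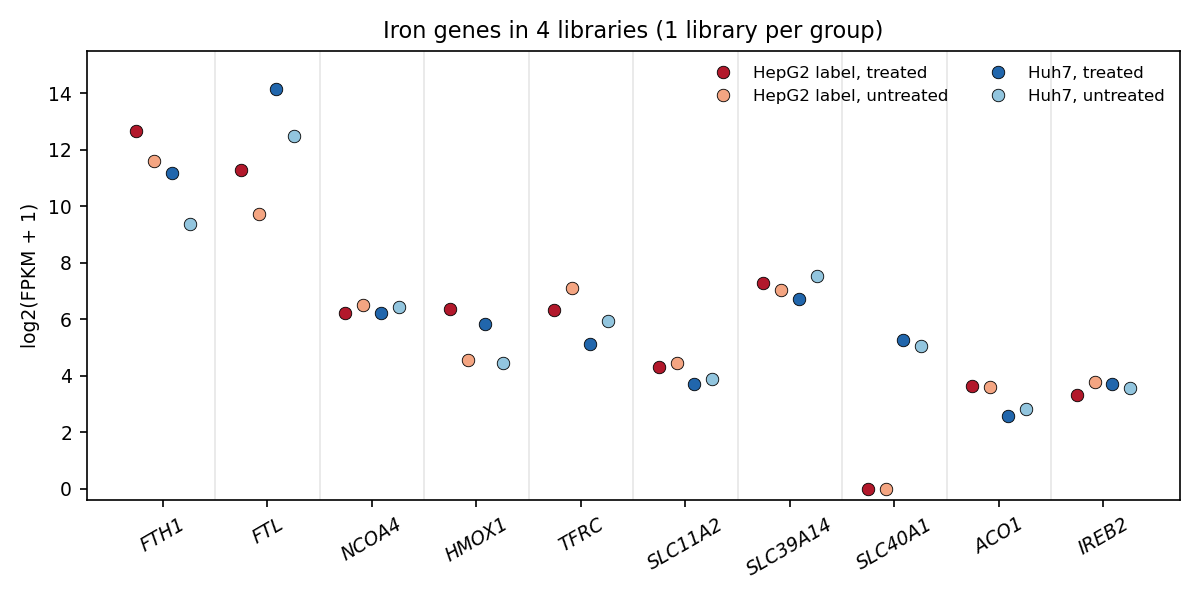
Level of each iron gene as log2(FPKM + 1), with 1 point per library and no error bar because each group held 1 library. FTH1 and FTL lie above the other members in every library, and SLC40A1 sits at 0 in both libraries labelled HepG2.

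Ferritin was the most abundant product of the set, and its chains were present in opposite proportions in the lines. FTL stood at 2514 FPKM in treated and 842 FPKM in untreated cells labelled HepG2, and at 18302 FPKM in treated and 5786 FPKM in untreated Huh7. FTH1 stood at 6428 FPKM in treated and 3078 FPKM in untreated cells labelled HepG2, and at 2296 FPKM in treated and 659 FPKM in untreated Huh7. The heavy chain was thus the larger in cells labelled HepG2 and the light chain the larger in Huh7, before and after treatment. The ratio of FTL to FTH1 in FPKM was 0.391 in treated and 0.274 in untreated cells labelled HepG2, and 7.97 in treated and 8.79 in untreated Huh7.

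Both chains were at least 2-fold higher after treatment in both lines, as were 6.7% of all genes measured under the HepG2 label and 3.88% in Huh7. FTH1 was 2.09-fold higher in treated cells labelled HepG2 and 3.48-fold higher in treated Huh7, as the ratio of FPKM + 1. FTL was 2.98-fold and 3.16-fold higher in the same order. The counting error of these ratios is small: for FTL the exact 95% interval of the log2 ratio is 1.55 to 1.60 under the HepG2 label and 1.65 to 1.67 in Huh7, and for FTH1 it is 1.04 to 1.08 and 1.77 to 1.84. Such intervals are for the ratio of FPKM without the added 1, cover the counting of fragments only, and say nothing of what a repeat culture would give. The log2 ratio of FTH1 was larger by 0.74 in Huh7 than under the HepG2 label and that of FTL by 0.08, and neither difference could be tested.

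By rank among all coding genes, FTH1 was number 1 in treated and number 3 in untreated cells labelled HepG2, and number 10 in treated and number 67 in untreated Huh7. FTL was number 5 in treated and number 43 in untreated cells labelled HepG2, and number 1 in treated and number 2 in untreated Huh7. Each chain was thus the most abundant coding transcript of 1 treated library. Together the chains made up 2.62% of the summed coding FPKM in treated cells labelled HepG2, against 1.11% untreated. In Huh7 they made up 5.45% treated, against 1.74% untreated. The sum of both chains was 2.28-fold higher in treated cells labelled HepG2 (8942 against 3920.4 FPKM) and 3.20-fold higher in treated Huh7 (20597 against 6444 FPKM). Most of the added ferritin transcript was the chain that each line already had in excess.

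**Figure D2:**
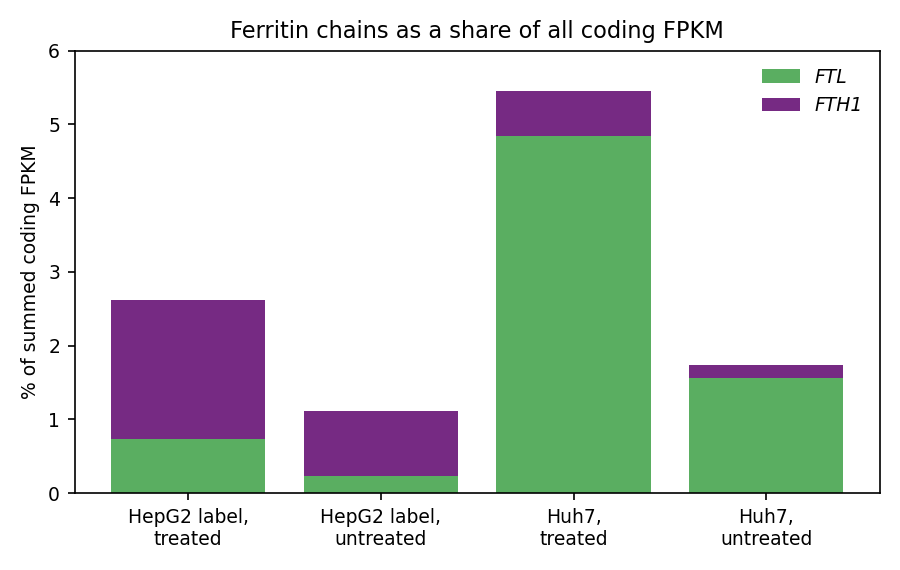
Share of the summed coding FPKM (in percent) taken by FTL and FTH1 in each of the 4 libraries. The stacked bar reaches 2.62% in treated and 1.11% in untreated cells labelled HepG2, mostly FTH1, and 5.45% in treated and 1.74% in untreated Huh7, mostly FTL.

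Both ferritin genes share sequence with neighbours or copies. FTL (ENSG00000087086) lies on chromosome 19 from 48965309 to 48966879. FTH1 (ENSG00000167996; chromosome 11, 61959718 to 61967634) shares 1267 of its 2030 exonic bases with BEST1, a chloride channel gene on the other strand, and the labels do not say whether strand was kept. BEST1 stood at 73.2 FPKM in treated and 13.7 FPKM in untreated cells labelled HepG2, and at 11.8 FPKM in treated and 11.6 FPKM in untreated Huh7. BEST1 was thus 5.05-fold higher after treatment under the HepG2 label and 1.02-fold in Huh7, where FTH1 had the higher ratio. FTH1 was 56.9 to 225 times BEST1 in FPKM, and the part of shared reads in either gene was not tested. GENCODE 29 lists 25 pseudogenes named after FTH1 and 16 named after FTL, none of them in the coding table, and the sources used here do not say how the authors assigned reads shared with them.

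Of the genes that release iron, HMOX1 was higher after treatment in both lines and NCOA4 was slightly lower. HMOX1 (ENSG00000100292; chromosome 22, 35380361 to 35394207), the inducible haem oxygenase, opens the haem ring and frees its iron. It stood at 81.0 FPKM in treated and 22.7 FPKM in untreated cells labelled HepG2, and at 55.6 FPKM in treated and 21.0 FPKM in untreated Huh7. The untreated lines were close to each other, and both treated libraries lay above both untreated ones. The ratios were 3.46-fold (log2 1.79, 95% counting interval 1.73 to 1.93) under the HepG2 label and 2.57-fold (log2 1.36, 1.30 to 1.51) in Huh7.

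NCOA4 (ENSG00000266412; chromosome 10, 46005088 to 46030714) is the receptor that carries ferritin to the lysosome for breakdown. It stood at 73.2 FPKM in treated and 89.1 FPKM in untreated cells labelled HepG2, and at 73.4 FPKM in treated and 85.0 FPKM in untreated Huh7. The treated libraries nearly coincide, as do the untreated ones. Its log2 ratios of −0.28 and −0.21 were far inside the range of −0.99 to 1.37 that held 95% of all genes under the HepG2 label, and of −0.95 to 1.11 in Huh7. FTH1 was also inside that range under the HepG2 label (log2 ratio 1.06) and outside it in Huh7 (1.80).

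**Figure D3:**
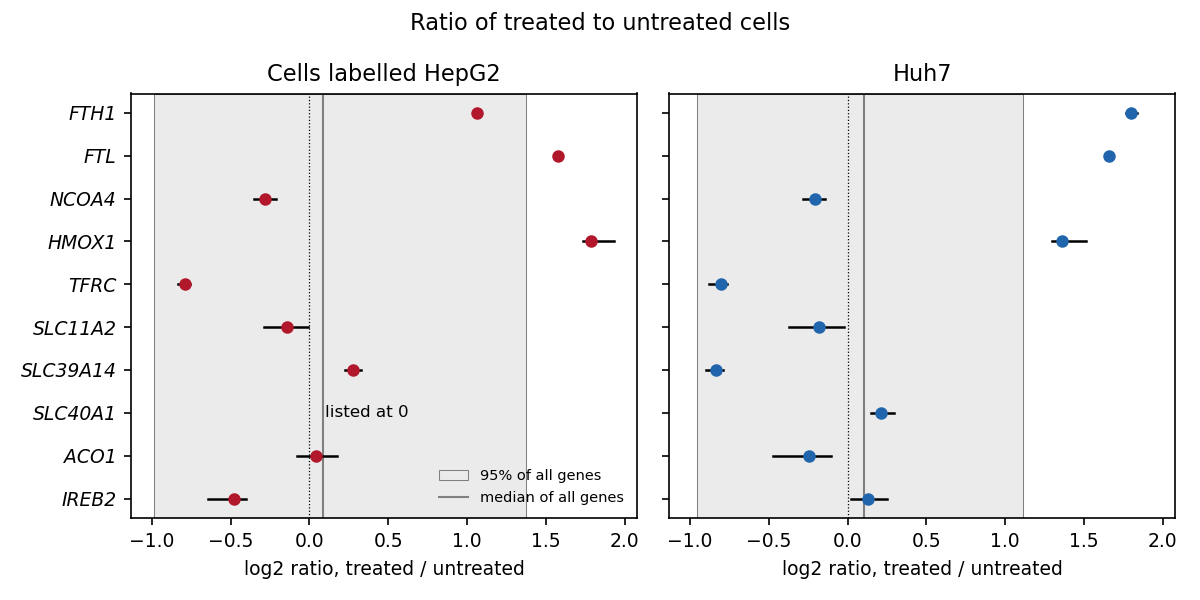
Log2 ratio of FPKM + 1, treated over untreated, for each member in cells labelled HepG2 and in Huh7. Bars are exact 95% counting intervals of the FPKM ratio, the grey band holds 95% of all genes with 1 FPKM or more in the line and the grey line is their median. FTL and HMOX1 lie above the band in both lines, FTH1 in Huh7, and no member lies below it.

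Uptake genes were level or lower after treatment, apart from SLC39A14 in cells labelled HepG2. TFRC (ENSG00000072274; chromosome 3, 196027183 to 196082096), the receptor for iron-laden transferrin, stood at 78.7 FPKM in treated and 137 FPKM in untreated cells labelled HepG2. In Huh7 it stood at 34.0 FPKM in treated and 60.1 FPKM in untreated cells. Its log2 ratios were −0.79 (95% counting interval −0.83 to −0.76) and −0.80 (−0.88 to −0.77), almost the same in both lines and short of 2-fold. In cells labelled HepG2, 4.75% of all genes had a lower ratio, and in Huh7 3.79%.

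Storage and uptake transcripts were thus further apart in treated cells. The sum of both ferritin chains was 114 times TFRC in treated and 28.7 times in untreated cells labelled HepG2. In Huh7 it was 606 times TFRC in treated and 107 times in untreated cells. These ratios in FPKM were 3.96-fold and 5.65-fold higher in treated than in untreated cells. TFRC carries its hairpins in the 3′ UTR and the ferritin chains theirs in the 5′ UTR, as printed above, and only a change in the amount of a messenger is seen by RNA sequencing. Ferritin and receptor protein were not measured.

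SLC11A2 (ENSG00000110911; chromosome 12, 50979401 to 51028942), known as DMT1, moves ferrous iron out of the endosome or in from outside. It stood at 19.1 FPKM in treated and 21.2 FPKM in untreated cells labelled HepG2, and at 12.0 FPKM in treated and 13.8 FPKM in untreated Huh7. Its log2 ratios were −0.14 and −0.18, and their counting intervals (−0.29 to −0.01 and −0.37 to −0.02) end just short of 0. The table of long noncoding transcripts lists SLC11A2-OT1 within this locus at 0.137 FPKM in treated and 1.16 FPKM in untreated cells labelled HepG2. In Huh7 that transcript stood at 0.110 FPKM in treated cells and was listed at 0 in untreated cells.

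SLC39A14, also called ZIP14, brings iron not bound to transferrin into liver cells. It stood at 156 FPKM in treated and 129 FPKM in untreated cells labelled HepG2, and at 103 FPKM in treated and 185 FPKM in untreated Huh7. The lines went opposite ways: the log2 ratio was 0.27 under the HepG2 label and −0.84 in Huh7, which was the lowest of the 10 members there. The difference of −1.11 between the lines, Huh7 minus HepG2 label, could not be tested with 1 library per group. By rank it was number 288 of all coding genes in treated and number 377 in untreated cells labelled HepG2, and number 501 in treated and number 292 in untreated Huh7.

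As listed, export divided the lines. SLC40A1 (ENSG00000138449; chromosome 2, 189560579 to 189583758) encodes ferroportin, the only known exporter of ferrous iron from vertebrate cells. It stood at 37.4 FPKM in treated and 32.1 FPKM in untreated Huh7, a log2 ratio of 0.21, and the cells labelled HepG2 have a listed level of 0, treated and untreated. If that 0 is a measured one, the limit can be given: at the inferred depth, 3 fragments on its transcript of 3442 bases would read 0.0376 FPKM in treated and 0.0339 FPKM in untreated cells labelled HepG2. These 2 values are written in the table with 1 decimal place, as are 12606 zeros among its 78956 values, while 6062 zeros have 6 decimal places, and no source used here says what sets the forms apart.

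The sensors of iron were read at low levels and stayed within 2-fold. ACO1 (ENSG00000122729; chromosome 9, 32384603 to 32454769) encodes a protein that is an aconitase with an iron-sulphur cluster and iron regulatory protein 1 without it. It stood at 11.5 FPKM in treated and 11.1 FPKM in untreated cells labelled HepG2, and at 4.99 FPKM in treated and 6.08 FPKM in untreated Huh7. IREB2 (ENSG00000136381; chromosome 15, 78437431 to 78501453) encodes iron regulatory protein 2, which is degraded when iron is ample. It stood at 8.91 FPKM in treated and 12.8 FPKM in untreated cells labelled HepG2, and at 12.1 FPKM in treated and 11.0 FPKM in untreated Huh7. The log2 ratios of ACO1 were 0.04 under the HepG2 label, where the counting interval of −0.08 to 0.18 includes no change and size factors turn the sign (−0.0098), and −0.24 in Huh7. Those of IREB2 were −0.48 and 0.13. IREB2 was 0.777 times ACO1 in treated and 1.15 times in untreated cells labelled HepG2, and 2.42 times in treated and 1.80 times in untreated Huh7.

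Counted over the set, 3 of the 9 members measured in cells labelled HepG2 were at least 2-fold higher after treatment, namely FTH1, FTL and HMOX1. Of all 11843 genes measured there, 6.7% were. In Huh7 the same 3 of 10 members were higher, against 3.88% of 11945 genes. No member was at least 2-fold lower in either line, where 2.43% and 2.19% of all genes were. A gene counts as measured in a line at 1 FPKM or more in at least 1 of its libraries, which leaves out SLC40A1 under the HepG2 label. The median log2 ratio of the members was 0.04 under the HepG2 label and −0.03 in Huh7, beside 0.09 and 0.10 over all genes.

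**Figure D4:**
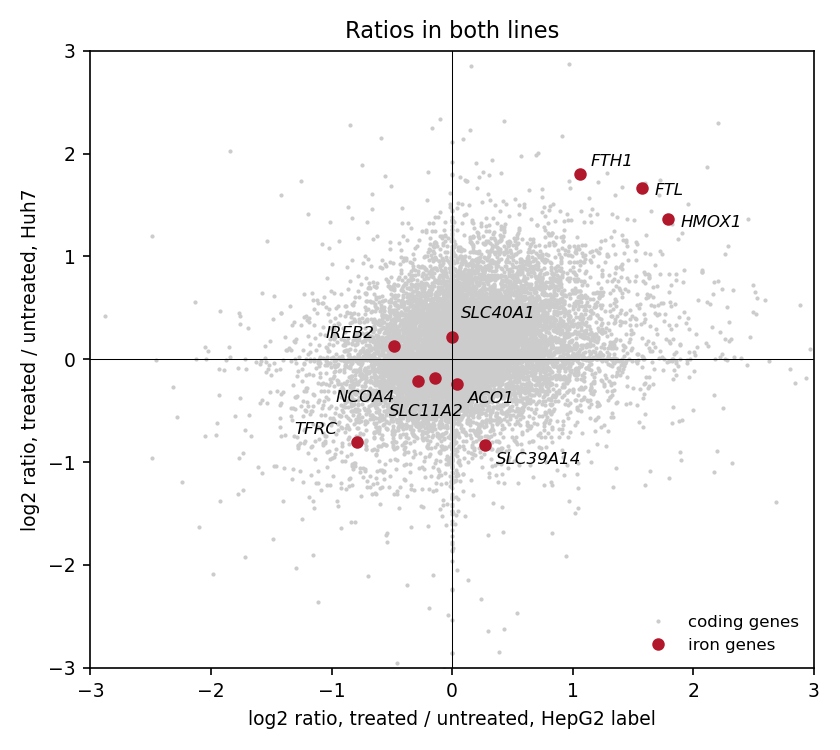
Log2 ratio of FPKM + 1, treated over untreated, in cells labelled HepG2 (x) and in Huh7 (y) for 13030 coding genes (grey) and the 10 iron genes (red), 1 library per group. FTH1, FTL and HMOX1 lie at the upper right and TFRC at the lower left, SLC39A14 and IREB2 have opposite signs in the lines, SLC40A1 is drawn at 0 on x because it is listed at 0 there, and 25 genes fall outside the axes.

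The only test across libraries was a limma fit of the treatment over both lines, with the line as a block and 1 residual degree of freedom. It tests whether the mean change over both lines differed from 0, against the spread between the lines and the trend over all genes. With Benjamini-Hochberg adjustment over 13030 genes, 0 genes (0%) and 0 of the 10 members passed 0.05, while 1534 genes and 4 members had an unadjusted p under 0.05. FTL came nearest, with a log2 change of 1.62 ± 0.15 (SE), higher in both lines, and an adjusted p of 0.0817. That call depends on the setting: the adjusted p of FTL was 0.0154 with each library rescaled to the same sum, 0.0326 at a minimum of 5 FPKM and 0.0464 with size factors, and ran from 0.0154 to 1.00 over the alternatives to the limma fit. FTH1 (1.43 ± 0.20) and HMOX1 (1.58 ± 0.23) each had an adjusted p of 0.166 in limma and were higher in both lines. TFRC (−0.80 ± 0.20) had an adjusted p of 0.259 in limma and was lower in both lines. The adjusted p of the other 6 members was 0.643 to 0.896 in limma.

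The authors' deposited tables list genes by Gene Ontology term and KEGG pathway for their own comparisons in each line. In the authors' deposited tables for cells labelled HepG2, FTL and HMOX1 were among the listed genes and FTH1 was not. In the authors' deposited tables for Huh7, FTH1, FTL and HMOX1 were all listed, and none of the other 7 members was listed in either line. These 2 and 3 of 10 members stand beside the size of the authors' deposited Gene Ontology lists. Those lists held 3213 of 22135 genes for cells labelled HepG2 and 2438 of 22135 for Huh7. The term "response to iron ion" held 12 of its 33 genes in the authors' deposited table for Huh7, with a corrected p of 0.0116, and 6 of 33 in that for cells labelled HepG2, with a corrected p of 1. The member it held was HMOX1, in both lines. Other terms looked up in the authors' deposited tables had a corrected p above 0.05 in both lines. In Huh7 the corrected p was 0.659 for cellular iron ion homeostasis, which held FTL, HMOX1 and FTH1. There it was 0.927 for iron ion transport and 0.697 for iron ion binding, which both held FTL and FTH1. For heme catabolic process it was 0.551, and for the KEGG pathway of porphyrin metabolism 0.577. The ferritin complex held 2 of 2 genes in the authors' deposited table for Huh7 (corrected p 0.175) and 1 of 2 in that for cells labelled HepG2 (corrected p 0.873). The KEGG pathway of mineral absorption held 12 of 51 genes in the authors' deposited table for Huh7 (corrected p 0.845) and 14 of 51 in that for cells labelled HepG2 (corrected p 0.847).

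Before treatment 4 of the 10 members differed by at least 2-fold between the lines in the listed values. Untreated Huh7 had 6.86-fold more FTL than untreated cells labelled HepG2 and 0.214 times as much FTH1, as ratios of FPKM + 1. TFRC was lower in untreated Huh7 (0.444 times the level under the HepG2 label). SLC40A1 was read in Huh7 only, if its listed 0 under the HepG2 label is a measured one. These members, 2 higher and 2 lower of 10, stand beside 17.5% and 17.2% of all 12446 genes, a share near that of the set. ACO1 (0.585 times), SLC11A2 (0.666 times) and SLC39A14 (1.44-fold) differed by less. NCOA4 (0.955 times), HMOX1 (0.927 times) and IREB2 (0.866 times) were nearly level between the lines.

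Beyond the set, 108 other genes of iron handling were taken in 9 lists, of which 88 were measured in each line. In cells labelled HepG2, 5 of the 88 (5.68%) were at least 2-fold higher after treatment and 2 (2.27%) lower, and in Huh7 7 (7.95%) were higher and 1 (1.14%) lower. These shares are to be read against the 6.7% and 2.43%, and the 3.88% and 2.19%, of all genes given above. With a pseudocount of 5, chosen after seeing the data, 3 of the 88 were higher under the HepG2 label, where 1.81% of all genes were, and 1 in Huh7, BLVRB, where 0.82% of all genes were. With size factors 5 were higher in Huh7, without ABCG2 and TAX1BP1, where 2.81% of all genes were. In the list of haem transport and breakdown 2 of 11 were higher under the HepG2 label, and 4 of 12 were higher and 1 lower in Huh7. None of the 11 measured genes of haem synthesis and none of the 4 of ferritin assembly and iron chaperones passed 2-fold in either line. PCBP4, of the latter list, was 1.97-fold higher under the HepG2 label. It passed 2-fold there with a pseudocount of 0.1 and with each library rescaled to the same sum.

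BLVRB, which reduces the biliverdin that haem oxygenase makes, stood at 118 FPKM in treated and 52.7 FPKM in untreated cells labelled HepG2, and at 196 FPKM in treated and 77.0 FPKM in untreated Huh7. SLC48A1, a haem transporter of the endosome and lysosome, stood at 57.2 FPKM in treated and 20.8 FPKM in untreated cells labelled HepG2, and at 9.30 FPKM in treated and 3.59 FPKM in untreated Huh7. CYBRD1, a ferric reductase of the plasma membrane, stood at 19.1 FPKM in treated and 7.62 FPKM in untreated cells labelled HepG2, and at 1.52 FPKM in treated and 0.228 FPKM in untreated Huh7. These 3 were the genes of the wider lists that were at least 2-fold higher in both lines. CYBRD1 rested on the lowest level, and its log2 ratio in Huh7 of 1.04 was 0.32 with a pseudocount of 5 and 2.30 with a pseudocount of 0.1.

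Other genes passed 2-fold in 1 line. LCN2, which binds iron-laden siderophores, stood at 22.1 FPKM in treated and 2.03 FPKM in untreated cells labelled HepG2 and under 1 FPKM in Huh7. MELTF, melanotransferrin, stood at 10.1 FPKM in treated and 3.67 FPKM in untreated cells labelled HepG2, and was 1.78-fold higher in Huh7. NFS1, the desulfurase that supplies sulphur to iron-sulphur clusters, stood at 15.4 FPKM in treated and 38.7 FPKM in untreated cells labelled HepG2, and at 20.1 FPKM in treated and 21.9 FPKM in untreated Huh7. CIAO3, of cytosolic cluster assembly, had log2 ratios of −1.07 under the HepG2 label and 0.54 in Huh7. That a gene passed in a single line does not show that the lines differed, which could not be tested.

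In Huh7 the haem chaperone PGRMC2 stood at 10.8 FPKM treated and 3.94 FPKM untreated, and the exporter ABCG2, which carries porphyrins among other substrates, at 4.58 FPKM treated and 1.71 FPKM untreated. Hemopexin (HPX), the plasma carrier of haem, was lower in Huh7, at 16.2 FPKM treated and 36.0 FPKM untreated. The autophagy genes TAX1BP1, a receptor that takes part in ferritin breakdown, and RB1CC1, of the complex that starts autophagosomes, were 2.06-fold and 2.42-fold higher in Huh7. The log2 ratio of TAX1BP1 there was 0.93 with size factors and 0.92 with a pseudocount of 5, short of 2-fold, and that of ABCG2 was 0.96 and 0.51. In the same cells NCOA4, the receptor that binds ferritin itself, had a log2 ratio of −0.21.

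**Figure D5:**
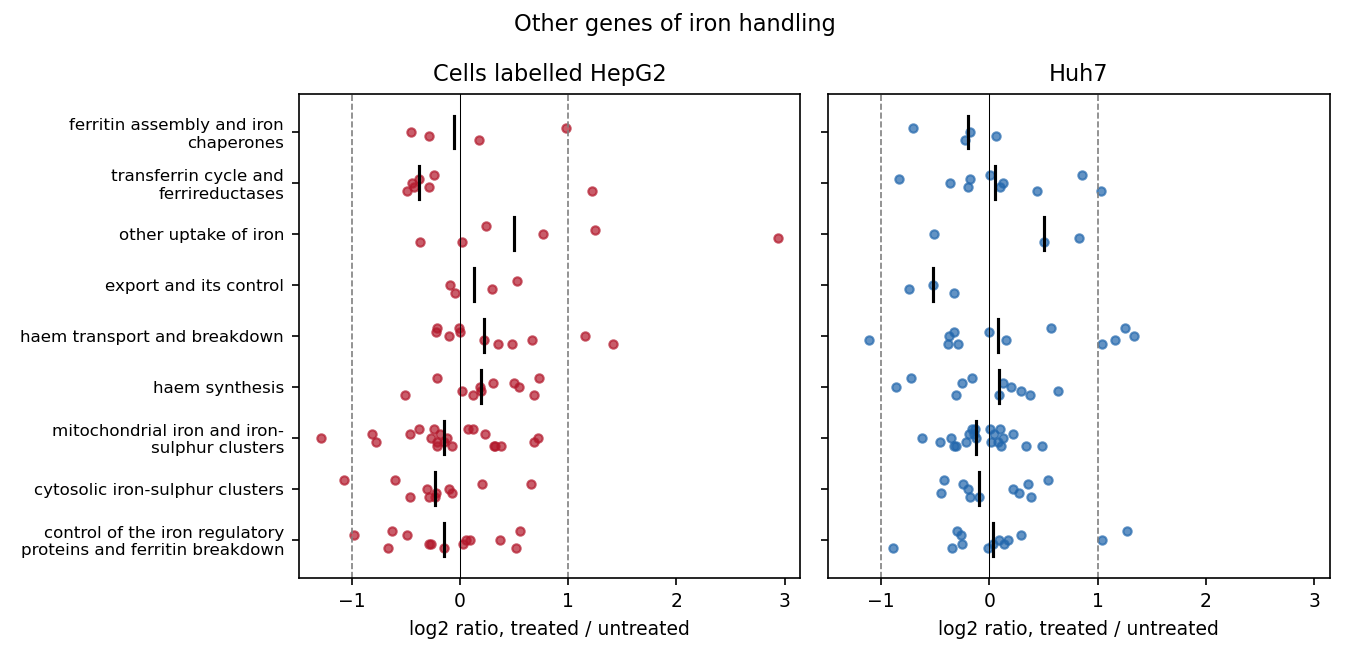
Log2 ratio of FPKM + 1, treated over untreated, for each measured gene of the 9 wider lists of iron handling in cells labelled HepG2 and in Huh7 (points, 1 gene each), with the list's median (black bar) and the 2-fold lines (dashed). Of 88 genes, 5 lie beyond the upper line under the HepG2 label and 7 in Huh7, and 2 and 1 lie beyond the lower line.

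Genes nearest in pattern over the 4 libraries were found by the smallest Euclidean distance of log2(FPKM + 1), each gene centred on its own mean, among genes reaching 10 FPKM. For TFRC these were BAD (distance 0.0818), CREBZF (0.128) and BTBD6 (0.142). For HMOX1 they were ABCC3 (0.312), IDI1 (0.405) and ABTB1 (0.492). For FTL they were CYP1A1 (0.392), MAPK8IP2 (0.542) and TRAPPC6A (0.554), and for FTH1 DNAJA4 (0.411), HSD17B8 (0.462) and NDE1 (0.495). Of these 4 members TFRC had the closest neighbours, and with 4 libraries and 7591 genes searched, many genes can lie near a profile.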

How the data were processed

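Per the labels' protocols, Trizol was used to extract RNA and a TruSeq kit to make libraries from 1 µg of it. The authors deposited FPKM per coding gene and per long noncoding transcript, 1 column per library, per the file headers. Enrichment tables with p-values and numbers of genes per term (other values) were also deposited by the authors, for Gene Ontology and KEGG, per the file headers. Per the submitters' processing notes, tools of unstated role were Cuffdiff 2.1.1, StringTie 1.3.1, HISAT2, GATK, SAMtools 0.1.18, Picard 1.96 and Bowtie2 2.2.8. The sources used here state neither build nor annotation. Of 19739 coding genes, 19664 are in GENCODE 29, and 99.84% of these overlap their listed position, so positions are read as GRCh38.

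Since FPKM hold no counts, count models were not used. Depth came from the most frequent step of FPKM times length in 2594 genes with 1 annotated transcript. The step was sought within a fixed window, which bounds the depth that can result. That window held 88 to 96 of these genes per library, of which 44 to 53 lay at the step. The step gave 23200000, 25700000, 22900000 and 26400000 fragments for treated and untreated cells labelled HepG2 and treated and untreated Huh7. Counting intervals are exact binomial intervals at 95%, from the fragments on the shortest coding transcript of GENCODE's basic set. Ratios used a pseudocount of 1 and genes at 1 FPKM or more in at least 1 library of a line, which understates the change of low genes. Limma 3.58.1 (R 4.3.3) was fitted to log2(FPKM + 1) with its trend option, and the fit and the ratios were run on simulated data. The changes simulated for the fit were larger than those of the members. That run therefore does not show that changes of their size would be found. Named beyond the members are the genes of the wider lists past 2-fold in either line and the 3 nearest in pattern to FTL, FTH1, HMOX1 and TFRC. Members and lists were chosen with earlier results of these data known. The labels name no batch. The wider lists' alternatives were added after seeing the data. Alternatives changed the pseudocount, the filter, the scaling, the trend and the block.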

Additional observations from a re-analysis of the deposited data

Results flagged for a closer look

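A few genes went opposite ways in the lines, each group being 1 library, and none of these differences was tested. They are given as the log2 ratio in Huh7 minus that in cells labelled HepG2. SLC39A14 differed by −1.11 (−0.84 in Huh7 and 0.27 under the HepG2 label), and the counting interval of each ratio excludes 0. IREB2 differed by 0.60 (0.13 and −0.48), also with both counting intervals clear of 0. Its ratio in Huh7 was near the median of all genes there (0.10) and was 0.017 with size factors. ACO1 differed by −0.29 (−0.24 and 0.04), and its interval under the HepG2 label includes 0. Among the genes of the wider lists named for passing 2-fold, PGRMC2 differed by 1.47 (1.25 and −0.22), with an interval under the HepG2 label that includes 0, and CIAO3 by 1.62 (0.54 and −1.07). In the wider lists 30 of the 83 genes measured in both lines had opposite signs. Both counting intervals were clear of 0 for 14 of them. The share over all genes was not counted, so these numbers have no background. Of these 14, named after their values were seen, PCBP4 differed by −1.68 (−0.70 and 0.98) and CAND1 by 1.28 (0.30 and −0.98).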

How the results depend on the processing

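The members at least 2-fold higher were 3 in each line under all 6 alternatives, with pseudocounts of 0.1 and 5, each library rescaled to the same sum, size factors, no filter and a minimum of 5 FPKM, and 0 were lower. Over all genes, the share higher at these settings ran from 1.81% to 11.2% under the HepG2 label and from 0.82% to 8.12% in Huh7. The share lower ran from 1.02% to 3.49% and from 0.929% to 3.53%. FTH1 under the HepG2 label was nearest to the threshold, at log2 1.00 with size factors. Of single values, the sign of ACO1 under the HepG2 label turned with size factors (−0.0098); the cause was not tested. Size factors lowered the median of all genes by 0.05 under the HepG2 label and by 0.10 in Huh7. The limma call on members, 0 as reported, was 1 (FTL) with rescaling to the same sum, with size factors and at 5 FPKM; it was 0 with a pseudocount of 0.1, without the trend, without a filter and without the line as a block. For the wider lists, in alternatives chosen after seeing the data, a pseudocount of 5 left 3 higher and 1 lower under the HepG2 label and 1 higher and 0 lower in Huh7, while the shares of all genes at that setting were 1.81% and 1.02%, and 0.82% and 0.929%. A pseudocount of 0.1 gave 4 lower under the HepG2 label, where 3.49% of all genes were. Size factors gave 2 lower in Huh7, where 2.84% of all genes were. The cause was not tested. The labels give no replicate numbers, and the line as a block is what pairs treated with untreated libraries. With 1 library per group no library could be left out, and Huh7 alone, without the libraries whose label is in doubt, gives no test. If its listed 0 is a measured one, depth limits SLC40A1 under the HepG2 label to 0.0376 FPKM treated and 0.0339 FPKM untreated by counting (3 fragments).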

Other observations

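Genes that take part in the control of body iron, with the export oxidases CP and HEPH, were chosen here after their values were seen. TFR2, the second transferrin receptor, stood at 7.69 FPKM in treated and 11.2 FPKM in untreated cells labelled HepG2, and at 3.95 FPKM in treated and 7.81 FPKM in untreated Huh7. TMPRSS6, a protease that holds hepcidin down, stood at 1.33 FPKM in treated and 2.34 FPKM in untreated Huh7 and was listed at 0 under the HepG2 label. HAMP, which encodes hepcidin, the hormone that makes ferroportin degrade, was listed at 0 in 3 libraries and stood at 0.854 FPKM in untreated Huh7. CP and HEPH, the oxidases that assist export, were below 1 FPKM in all 4 libraries. Not every gene of these kinds was lower after treatment. HFE had log2 ratios of −0.44 under the HepG2 label and 0.12 in Huh7, and BMP2 of −0.04 and −0.32. BMP6 had a log2 ratio of 0.30 under the HepG2 label and was below 1 FPKM in Huh7.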
